A study of Mus musculus with 10 samples.

Results

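Mouse neural stem and progenitor cells (NSPCs) hold many regions of accessible chromatin in both quiescence and activation. At some of these regions the ATAC-seq signal ranked higher in the libraries of 1 state. The regions described here are shared sites that had the stronger ATAC-seq signal in activated NSPCs. Overlapping or abutting peaks of the 2 quiescent and 2 activated libraries were merged on chromosomes 1 to 19 into 68484 sites, of which 22941 had a peak in all 4 libraries. Within each library the highest fold enrichment of a site was turned into its percentile from 0 to 100 among these shared sites. A site was a member when the lower of its 2 activated percentiles exceeded the higher of its 2 quiescent percentiles by at least 15 points. This held for 1818 of the 22941 shared sites, or 7.92%. The same difference in the opposite direction was met by 1634 sites, or 7.12%, which served as the opposite set. The quiescent and activated signals chose the members, so their levels in those libraries are given as a description without a test.

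All groups were primary NSPCs of C57BL/6 mice, isolated from brains at postnatal day 5. Activated NSPCs were grown with 20 ng/ml of both FGF2 and EGF, and quiescent NSPCs were kept for 4 days, by the sample labels (the methods of the study give a shorter time for ATAC-seq), in 25 ng/ml of BMP4 with 20 ng/ml of FGF2 and no EGF. Reactivated NSPCs went from BMP4 back to FGF2 and EGF, at 20 ng/ml each, for 9 to 12 days, and these 2 libraries had no part in choosing the members. The labels do not say whether replicates came from separate animals, and a lower signal from fewer open cells and from less open chromatin per cell cannot be told apart in bulk libraries. H3K4me3, a histone mark of active promoters, was measured by ChIP-seq in 1 quiescent and 1 activated library, with an input library each. Promoters of all 8 NSPC marker genes examined, including Sox2, Nes and Vim, held a peak in all 4 libraries, as did 3 of 6 neuronal, 2 of 5 astrocyte, 0 of 5 oligodendrocyte and 0 of 6 microglial marker promoters. Among endothelial markers the Flt1 promoter alone held one (1 of 5), and among fibroblast and pericyte markers the Col1a1 promoter alone (1 of 5). The part of other cell types in the results was not tested.

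BMP signalling holds neural stem cells in quiescence, whereas EGF and FGF drive them to divide. Accessible regions away from promoters are often enhancers, short DNA elements bound by transcription factors that act on genes at a distance. Basic helix-loop-helix (bHLH) factors, which control neural progenitors, bind E-boxes such as the words CAGCTG and CAGATG, the latter favoured by OLIG2 and NEUROD-type factors. SOX factors, among them SOX2 of neural stem cells, bind ACAAAG and ACAATG, and nuclear factor I (NFI) proteins bind sites with the core TTGGC.

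The reference sequences of 10 members are shown because they lay at the widest differences between the states, or near genes of the pathways described below. Each line gives the plus strand of mm10, read 5′ to 3′ from the RefSeq genome of that build, over the base midway between the 2 activated summits and 100 bases to each side. Capitals mark the E-boxes CAGCTG and CAGATG, the latter read as CATCTG on the other strand. Each site is called by the protein-coding transcription start site (TSS) nearest to its middle, from which distances are given, and this does not make that gene its target.
Kcnj2 site, chr11:111818294-111818494: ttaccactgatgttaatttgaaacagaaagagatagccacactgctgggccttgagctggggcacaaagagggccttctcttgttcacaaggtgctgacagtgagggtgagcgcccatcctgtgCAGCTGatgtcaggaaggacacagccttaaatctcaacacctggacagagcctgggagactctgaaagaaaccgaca
Mrps28 site, chr3:8830955-8831155: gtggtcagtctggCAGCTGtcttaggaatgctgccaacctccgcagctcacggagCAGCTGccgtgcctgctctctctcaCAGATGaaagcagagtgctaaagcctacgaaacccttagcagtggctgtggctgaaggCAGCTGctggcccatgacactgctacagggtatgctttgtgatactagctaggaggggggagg
Fbxo48 site, chr11:16941467-16941667: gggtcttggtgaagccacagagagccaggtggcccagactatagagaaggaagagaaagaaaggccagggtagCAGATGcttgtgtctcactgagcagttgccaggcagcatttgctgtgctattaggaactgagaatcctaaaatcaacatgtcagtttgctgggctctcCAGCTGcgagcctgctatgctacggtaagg
Rgs6 site, chr12:83194971-83195171: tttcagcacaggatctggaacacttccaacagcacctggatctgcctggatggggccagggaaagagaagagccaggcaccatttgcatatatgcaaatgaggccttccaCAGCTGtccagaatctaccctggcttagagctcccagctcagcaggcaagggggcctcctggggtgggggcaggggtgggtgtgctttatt
Klhl6 site, chr16:19884208-19884408: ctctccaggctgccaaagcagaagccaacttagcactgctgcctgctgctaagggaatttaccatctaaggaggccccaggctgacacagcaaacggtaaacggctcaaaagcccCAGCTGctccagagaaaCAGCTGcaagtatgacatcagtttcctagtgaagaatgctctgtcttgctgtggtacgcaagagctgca
Erv3 site, chr2:131847615-131847815: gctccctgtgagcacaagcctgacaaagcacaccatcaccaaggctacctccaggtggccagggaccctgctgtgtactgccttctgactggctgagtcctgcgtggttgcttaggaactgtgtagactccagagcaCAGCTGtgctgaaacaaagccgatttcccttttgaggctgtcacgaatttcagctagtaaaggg
Pou3f2 site, chr4:22835803-22836003: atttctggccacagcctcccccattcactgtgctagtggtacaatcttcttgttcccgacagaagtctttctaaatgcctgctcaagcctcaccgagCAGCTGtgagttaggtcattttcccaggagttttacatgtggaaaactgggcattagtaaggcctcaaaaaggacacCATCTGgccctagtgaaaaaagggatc
Cspg4 site, chr9:56868350-56868550: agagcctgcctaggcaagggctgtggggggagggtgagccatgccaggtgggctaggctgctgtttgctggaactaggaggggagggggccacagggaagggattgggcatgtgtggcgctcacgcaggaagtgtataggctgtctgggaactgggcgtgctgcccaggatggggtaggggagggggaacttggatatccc
Spry2 site, chr14:105851447-105851647: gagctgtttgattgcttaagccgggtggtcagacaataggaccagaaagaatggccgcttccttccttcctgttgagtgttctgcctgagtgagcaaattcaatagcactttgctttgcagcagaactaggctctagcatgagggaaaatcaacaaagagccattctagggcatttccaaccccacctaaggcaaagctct
Mycn site, chr12:12877649-12877849: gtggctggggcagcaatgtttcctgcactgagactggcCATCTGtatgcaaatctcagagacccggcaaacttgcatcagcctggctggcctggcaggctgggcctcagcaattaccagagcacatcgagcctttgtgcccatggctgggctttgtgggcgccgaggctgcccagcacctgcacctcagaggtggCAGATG

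Of these windows, 7 held CAGCTG, and the window near Mrps28 held it 3 times. The windows near Cspg4 and Spry2 held neither E-box, and that near Mycn held CAGATG 2 times and no CAGCTG.

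The members lay in the low part of the accessibility range in quiescent NSPCs and in its upper middle in activated NSPCs. Their median percentile was 19.6 and 20.8 in the quiescent libraries and 63.6 and 63.9 in the activated libraries. In fold enrichment over local background the medians were 3.94 and 3.67 in quiescence against 8.75 and 7.27 upon activation. Across all shared sites, in contrast, the medians were 5.92, 5.50, 7.29 and 6.04 in the same order. The mean log2 fold enrichment of members was 0.98 higher in activated than in quiescent NSPCs (median of 1818 sites, lower and upper quartile 0.83 and 1.20), beside 0.15 over all shared sites. By the rule, each member carried a called peak in both quiescent libraries.

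Read depth bears on how firmly a single site can be read. The pileup at the summit, recovered from fold enrichment and p, had a median over members of 30 and 48 reads in the quiescent libraries and 76 and 55 in the activated libraries. The background pileup was 6.66, 12.1, 6.54 and 6.06 in these libraries, so quiescent replicate 2 was the deepest. Replicates of members differed by a median of 6.96 percentile points in quiescent and 7.0 points in activated NSPCs, and for 1 member in 10 the quiescent replicates were at least 20.7 points apart. The gap between the states ranged from 15 to 87.1 points with a median of 26.1. It was under 20 points in 493 members (27.1%), and 50 points or more in 178 members (9.79%).

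At the threshold, the gap was smallest at a promoter site of Rgs3, a regulator of G protein signalling, with percentiles of 7.36 and 18.1 in quiescence against 40.6 and 33.1 upon activation. Just outside, the widest gap lay in an intron of Fez1, a kinesin adaptor, with 24.2 and 19.5 against 47.1 and 39.2. The gaps of these sites were 15 and 14.99 points. The next 2 members, at Sept9 and in the Pvt1 locus beside Myc, had gaps of 15.01, and the next 2 sites outside, at the promoters of Cyb5b and Kif15, had 14.98. Membership at the threshold thus turned on differences far below the replicate spread. Leaving out 1 library let 1 library stand for its state, with fewer lists needing a peak, so the rule was easier to meet. The rule then took 3070 of 25324 shared sites without quiescent replicate 1 and 3174 of 24229 without quiescent replicate 2. Without activated replicate 1 it took 3147 of 23922, and without activated replicate 2 it took 3295 of 26221. The opposite set grew alike, to 2995, 3047, 3140 and 3220 sites in the same order. How far the number depended on single libraries cannot be read from these counts. The rule took 929 of 14213 shared sites when each peak needed a −log10 q of at least 10, and the opposite set then had 868.

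**Figure D1:**
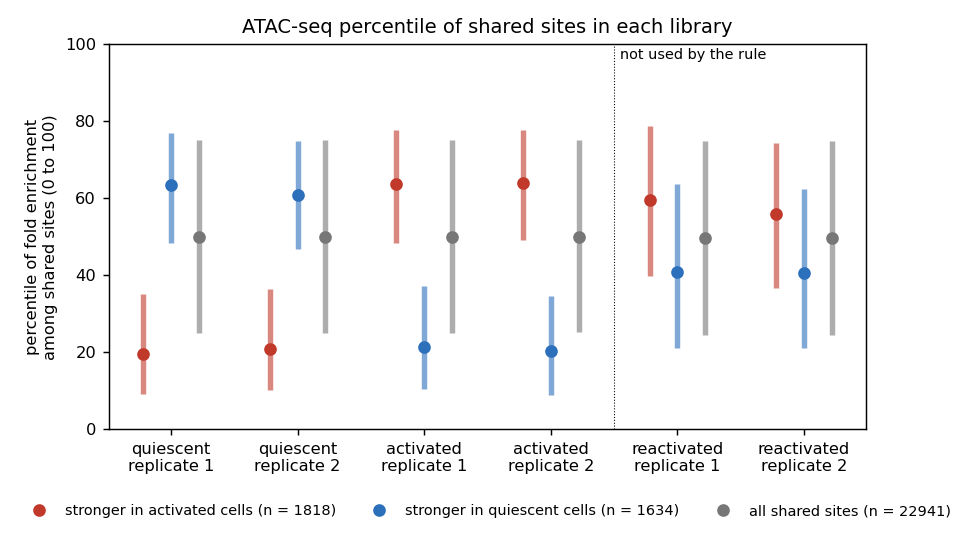
Percentile of ATAC-seq fold enrichment among the 22941 shared sites (y axis, 0 to 100) in each of 6 libraries (x axis). Points are medians and bars run from the lower to the upper quartile of the sites. Members (red) had medians of 19.6 and 20.8 in quiescence against 63.6 and 63.9 upon activation, and 59.5 and 56.0 in the reactivated libraries that the rule did not use.

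In reactivated NSPCs, which the rule did not use, the members again stood above the average shared site. Their median percentile was 59.5 and 56.0 in the 2 reactivated libraries, whereas the opposite set had 40.8 and 40.6. Both reactivated percentiles were 50 or more at 952 of 1818 members (52.4%, 95% exact interval 50.04 to 54.7%), beside 43.6% of all shared sites and 29.7% (27.5 to 32.0%) of the opposite set. This order of members and all shared sites was lost without activated replicate 1, when the shares were 43.2% and 43.5%, and held without any other library. All intervals here are exact binomial (Clopper-Pearson), treat sites as independent and cover counting error only. Distal members, those with no TSS within 1 kb, stood higher, with 56.7% (53.9 to 59.4%) at percentile 50 or more in both, beside 32.7% of all distal shared sites. At promoters the order was the other way, 41.4% (37.1 to 45.8%) of members beside 52.8% of all shared promoter sites. The opposite set was below the members in both places, with 30.2% (27.6 to 32.9%) of its distal and 28.4% (24.3 to 32.9%) of its promoter sites.

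Members with a wider gap between quiescent and activated NSPCs also stood higher after reactivation. Their median reactivated percentiles were 53.4 and 49.98 at a gap of 15 to 20 points, 55.9 and 52.0 at 20 to 30, 62.2 and 55.4 at 30 to 40, and 72.2 and 68.3 at 40 points or more. Activated percentiles were higher across the same bands too, from 55.8 and 54.6 to 76.4 and 76.3. The opposite set also stood higher after reactivation where its gap was wider, from 37.2 and 36.7 at 15 to 20 points to 46.5 and 47.1 at 40 points or more, so the trend was not particular to the members. The mean reactivated percentile was nearer to the activated than to the quiescent mean at 1337 members (73.5%), beside 56.7% of all shared sites and 51.6% of the opposite set. Both reactivated percentiles lay above both quiescent ones at 1549 members (85.2%), beside 30.2% of all shared sites, and below both activated ones at 812 (44.7%), beside 34.8%. The quiescent and activated values in these counts chose the members, so the counts are a description.

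Nearly every member was still called as a peak after reactivation, with 1815 of 1818 (99.8%) open in both reactivated libraries, but 98.9% of all shared sites were too. The reactivated lists held 106586 and 107137 peaks, beside 47323 to 60881 in the other 4 lists. With the reactivated lists limited to their strongest 47323 peaks, the share was 97.4% of members, 88.2% of all shared sites and 87.6% of the opposite set. An intronic site of Mgst1, a microsomal glutathione transferase, lacked a peak in both reactivated libraries, with fold enrichments of 3.68 and 5.58 in quiescence against 9.26 and 12.6 upon activation. A site 254160 bp from Tmem132b had a peak in reactivated replicate 1 at 3.47 and none in replicate 2, after 8.34 and 7.83 in activated NSPCs. Both were among the 3 members with the lowest mean reactivated percentile.

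The widest gaps, those above the 75.31 points of the promoter site near Klhl6, lay away from promoters. The first was an intergenic site 752179 bp downstream of Kcnj2, an inward rectifier potassium channel gene, with a fold enrichment of 2.37 in both quiescent libraries, 13.2 and 10.7 in activated NSPCs and 14.3 and 12.0 in reactivated NSPCs. An intronic site of Mrps28, a mitochondrial ribosomal protein gene, had 3.68 and 3.29 in the quiescent libraries, 16.03 and 12.8 in the activated and 21.8 and 21.02 in the reactivated ones. At a site 21507 bp upstream of Cdh20, a cadherin gene, the values were 3.94 and 3.67, then 18.4 and 16.1, then 17.8 and 19.02. Both quiescent libraries were low in each case. Fold enrichment is not scaled between libraries and was higher in reactivated NSPCs over all shared sites, with medians of 10.4 and 10.7. In percentiles, the site near Kcnj2 stood at 91.0 and 89.0 in activated and at 80.85 and 60.3 in reactivated NSPCs, and the site near Mrps28 at 98 and 96.45 and then at 99.49 and 98.75.

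Within an intron of the long noncoding gene Eldr, 9729 bp upstream of Fbxo48, the values were 2.89 and 3.29 in the quiescent libraries, 14.4 and 12.2 in the activated and 14.1 and 17.5 in the reactivated ones. A site 23864 bp upstream of Ptk2, the focal adhesion kinase gene, had percentiles of 5.58 and 3.19 when quiescent and 85.3 and 80.8 when activated, and its reactivated replicates stood at 96.3 and 66.2. The other distal members among the first 12 lay near Rgs6, Rorb, Ube3a, Spry2, Dhx9, Atg16l1 and Rnd3, the last an atypical small GTPase gene. None of the 12 had a quiescent fold enrichment above 3.94 or an activated one below 8.84.

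The promoter members with the widest gaps included several starts of long noncoding RNAs rather than of coding genes. The first 4 lay at A930003A15Rik, 5330413P13Rik, 4833413E03Rik and Gm46204, all annotated as lincRNAs. At A930003A15Rik the values were 3.02 and 2.98 in the quiescent libraries, 11.7 and 11.8 in the activated and 14.8 and 16.2 in the reactivated ones. Among coding genes, the site 123 bp upstream of a start of Nfia, which encodes an NFI factor of glial development, had 4.21 and 3.44, then 14.0 and 10.2, then 14.99 and 16.9. The site whose middle lay 1066 bp upstream of Exosc9, a subunit of the RNA exosome, had 2.63 and 3.36, then 11.4 and 9.21, then 13.5 and 15.1, and its window held CAGCTG 6 times. Stxbp4 and Gm973 completed the first 8 outside chromosome 18, on which 1 promoter member with a wider gap than Gm973 was not described singly.

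**Figure D2:**
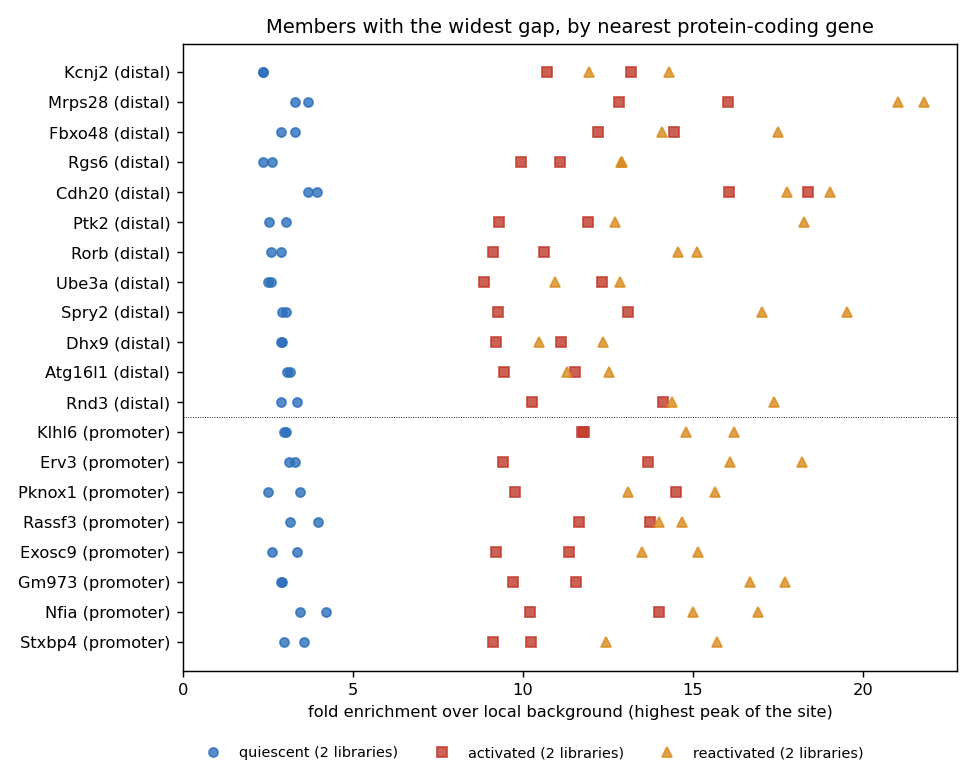
Fold enrichment over local background (x axis, linear from 0) of the 12 distal and 8 promoter members with the widest gap outside chromosome 18, each row named by its nearest protein-coding gene. Each symbol is 1 library, with 2 libraries per state. The first row, the site near Kcnj2, has quiescent libraries at 2.37 and activated libraries at 13.2 and 10.7.

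Members lay at promoters less often than the average shared site. Of 1818 members, 514 (28.3%, 26.2 to 30.4%) had a TSS within 1 kb of the nearest base of the site, beside 54.0% of all shared sites. A further 36.2% lay in introns, 31.1% between genes and 4.40% in exons. The opposite set was placed alike, with 27.5% (25.4 to 29.8%) at promoters and 36.8% in introns, so the low promoter share was not particular to the members. Of the promoter members, 80.0% were at protein-coding starts, beside 92.4% of all shared promoter sites and 83.1% of the promoter opposite set. Distal members lay a median of 34447 bp from the nearest protein-coding TSS and 21.2% of them lay beyond 100 kb, beside 24356 bp and 18.6% for all distal shared sites and 29476 bp and 20.3% for the distal opposite set. Their median width was 530 bp, and 459 bp in the distal opposite set.

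H3K4me3 covered fewer member promoters than shared promoters in general. A peak in both states overlapped 29.4% of members, beside 55.0% of all shared sites. At promoters the share was 371 of 514 members (72.2%, 68.1 to 76.0%), beside 89.8% of all shared promoter sites and 69.3% (64.8 to 73.6%) of the opposite set. Among distal members 12.5% (10.8 to 14.4%) were marked in both states, 6.67% (5.32 to 8.25%) of the distal opposite set and 14.0% of all distal shared sites. A mark in activated NSPCs alone was found at 1.21% of members, and a mark in quiescent NSPCs alone at 5.50%, beside 0.549% and 2.71% of all shared sites and 0.673% and 3.79% of the opposite set.

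At promoters, the stronger accessibility of the members in activated NSPCs was not matched by a stronger H3K4me3 signal. At the 371 promoter members marked in both states, median H3K4me3 fold enrichment was 28.4 in quiescent and 27.5 in activated NSPCs. The log2 difference, activated minus quiescent, had a median of -0.12 at these members, -0.11 at all shared promoter sites and -0.14 at promoters of the opposite set. It was above 0 at 32.4% of promoter members and 33.1% of all shared promoter sites. At the 163 distal members marked in both states the median was -0.11, and the difference was above 0 at 41.1%. All distal shared sites had a median of -0.15 with 32.05% above 0, and the distal opposite set -0.15 with 32.9%. The share above 0 was thus higher at distal members than in both other sets. With 1 library per state no test was possible and the level of the 2 libraries was not equalised. Single members departed from these medians in both directions. H3K4me3 was 4.55 in quiescent and 11.4 in activated NSPCs at the start of the lincRNA C030034L19Rik near Zfp704, 7.01 and 13.1 at Adora1, which encodes an adenosine receptor, and 9.90 and 18.4 in an intron of Dpf3, a chromatin remodelling subunit gene. In the other direction it was 29.4 and 4.77 in an intron of Lncppara, the noncoding neighbour of Ppara, 11.5 and 4.05 at Ankef1, and 17.2 and 7.28 at a site 24715 bp from Calcoco1. All 6 sites, being members, had the stronger ATAC-seq signal in activated NSPCs.

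**Figure D3:**
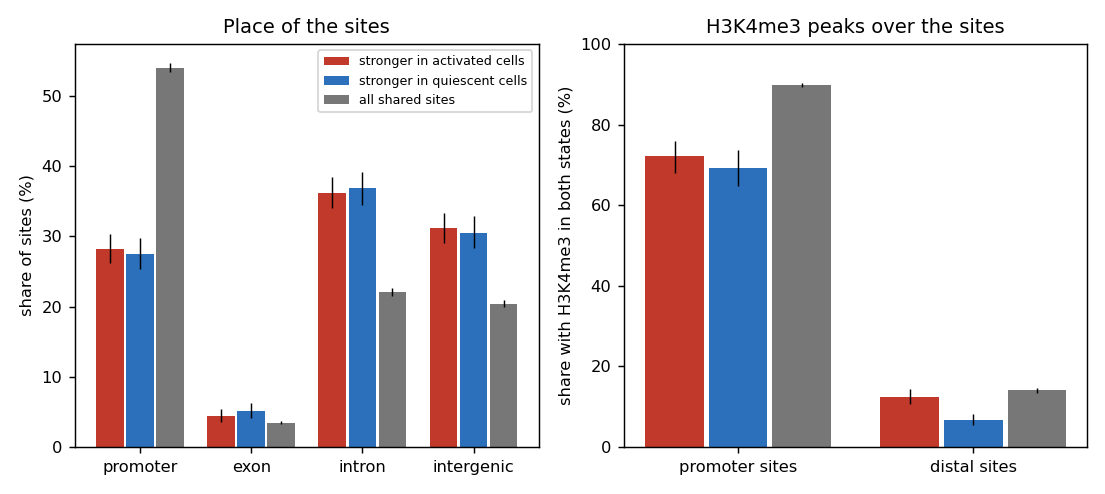
Left, share of sites (%) at promoters, in exons, in introns and between genes. Right, share of promoter and distal sites (%) with an H3K4me3 peak in both states. Bars start at 0 and error bars are 95% exact intervals over sites. Promoters hold 28.3% of members and 54.0% of all shared sites, and 72.2% of member promoters carry H3K4me3 in both states beside 89.8% of all shared promoter sites.

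The windows of the members held E-boxes and SOX words more often than those of other shared sites. CAGCTG, counted on both strands of these windows around the summits, was found at 560 of 1304 distal members (42.9%, 40.2 to 45.7%). It was found at 26.0% (25.1 to 26.8%) of all 10542 distal shared sites and at 20.0% (17.8 to 22.4%) of the distal opposite set. Promoter members also held it most often of the 3 sets, with 30.9% (26.96 to 35.1%) beside 13.1% of all shared promoter sites and 16.7% of the promoter opposite set. Of the distal members 11.5% held the word 2 or more times, as in the window near Mrps28, beside 4.33% of all distal shared sites and 1.69% of the opposite set.

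The second E-box, CAGATG, followed the same order, at 28.1% (25.7 to 30.7%) of distal members, 19.4% of all distal shared sites and 16.7% of the opposite set. The SOX word ACAAAG was held by 30.6% of distal members, 22.3% of all distal shared sites and 19.6% of the opposite set, and ACAATG by 19.5%, 12.8% and 11.1%. An E-box and a SOX word occurred together in 25.5% (23.2 to 28.0%) of distal members, 13.0% of all distal shared sites and 9.46% of the opposite set. Neither was found in 20.6% of distal members, beside 40.02% of all distal shared sites.

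Among the rarer words, the RFX half-site GTTGCCA was held by 10.6% of distal members, 6.76% of all distal shared sites and 5.41% of the opposite set, and the AP-1 word TGANTCA by 11.4%, 8.94% and 6.84%. The NFI core TTGGC was found at 53.2% (50.5 to 56.0%) of distal members, 51.3% of all distal shared sites and 57.9% (55.0 to 60.7%) of the opposite set. The CTCF motif was rarer among distal members, at 1.61% beside 5.37% of all distal shared sites, and also among the opposite set at 2.87%. GGAATG of TEAD factors, TAATTA of homeodomain factors and CCGGAA of ETS factors stood at 15.4%, 4.06% and 4.75% of distal members, beside 13.3%, 4.24% and 4.61% of all distal shared sites. At promoters, members held fewer GC boxes (GGGCGG, 45.7% beside 59.6%), CCAAT words (19.6% beside 33.0%) and CCGGAA words (11.7% beside 21.6%) than all shared promoter sites. The promoter opposite set held these at 40.4%, 31.1% and 13.3%. A match to a word is a description of the window and not a bound site.

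**Figure D4:**
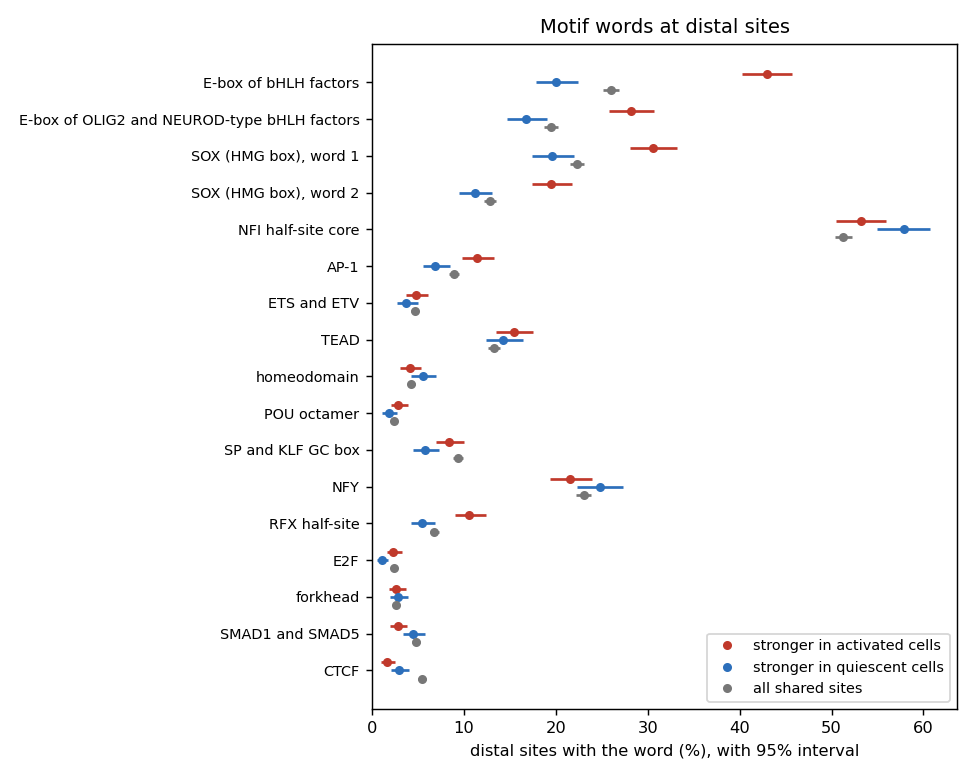
Share of distal sites (%, x axis from 0) that hold each of 17 motif words in the window around the summits, named by the factors that bind them. Points are shares and lines are 95% exact intervals over sites. The E-box CAGCTG is held by 42.9% of members, 20.0% of the opposite set and 26.0% of all distal shared sites, and the NFI core by 53.2%, 57.9% and 51.3%.

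The E-box difference was also present among windows of like base composition. Distal windows of members had a median GC content of 53.2%, beside 52.2% for all distal shared sites and 51.7% for the opposite set. Within windows of 50 to 55% GC, CAGCTG was held by 43.6% of 447 members, 28.4% of all distal shared sites and 21.4% of the opposite set. Below 45% GC the shares were 28.2%, 13.5% and 13.7%, and at 60% GC or more 51.5%, 29.3% and 25.6%. The order of members and all shared sites was the same in all 5 GC classes.

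The E-boxes of distal members gathered at the summit. Within 50 bp of the centre there were 15.8 CAGCTG words per 100 members in each 50 bp, and 2.55 at 400 to 500 bp from it. The corresponding densities were 8.67 and 2.47 for all distal shared sites and 5.66 and 2.07 for the opposite set, so the flanks were alike and the centres differed. The windows were centred on activated summits in every set. Centred instead on the middle of the merged site, they held CAGCTG at 36.3% of distal members, 23.4% of all distal shared sites and 17.1% of the opposite set.

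Across all distal shared sites the E-box share was higher where the signal was stronger in activated NSPCs, and showed no such trend where it was stronger in quiescent NSPCs. It was 20.5% (16.9 to 24.5%) of 459 sites whose mean activated percentile was more than 40 points below the quiescent one, 16.5 to 22.5% in the 4 bands from 40 to 0 points below and 51.7% (47.7 to 55.8%) of 601 sites at 40 points or more above. In between it was 24.7% at 0 to 10, 33.3% at 10 to 20, 37.7% at 20 to 30 and 35.7% at 30 to 40 points above. ACAAAG went from 19.9% at 10 to 0 points below to 34.6% at 40 points or more above. CTCF was rarer toward both ends, with 1.09% in the lowest band, 6.17 to 7.46% in the 4 bands from 30 points below to 10 points above, and 0.832% at 40 points or more above.

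**Figure D5:**
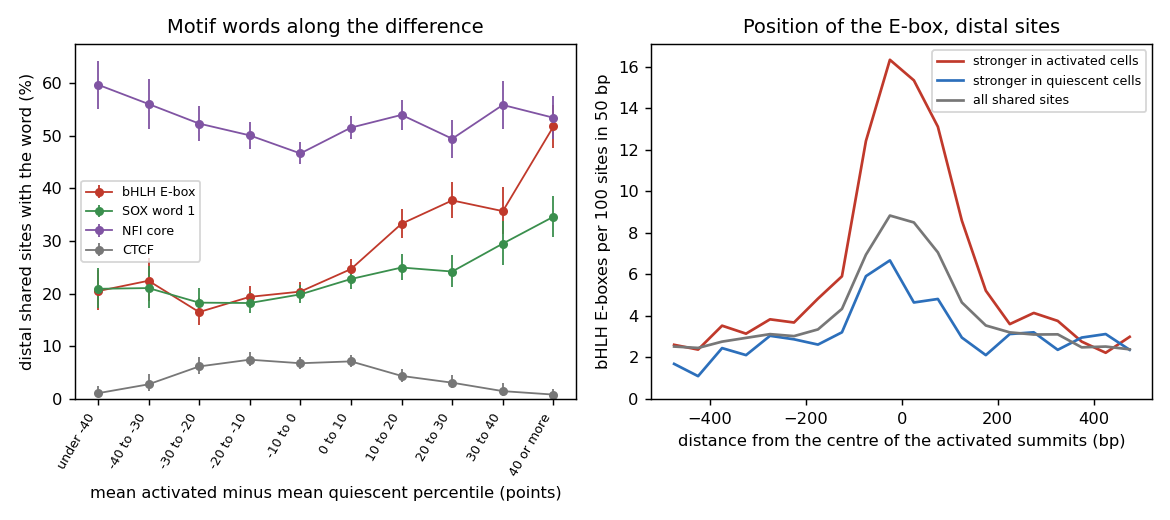
Left, share of distal shared sites (%) with each motif word in bands of the mean activated minus mean quiescent percentile (points), with 95% exact intervals. Right, CAGCTG words per 100 distal sites in 50-bp bins against the distance (bp) from the centre of the activated summits. The E-box share is 20.5% in the lowest band and 51.7% in the highest, and its density in members is 15.8 per 100 sites within 50 bp of the centre.

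Grouped by the pathway of the nearest coding gene, members were most frequent near genes of EGF and FGF signalling and its feedback. Of 75 shared sites nearest to genes of this list, 16 were members (21.3%, 12.7 to 32.3%) and 1 belonged to the opposite set. The 16 members lay near 9 of the 21 genes of the list that had a shared site. These were the receptors Egfr (2 members), Fgfr1 (2) and Fgfr2 (3), the feedback inhibitors Spry2, Spry4 and Spred2 (1 each), the ETS factor Etv1 (2), the response gene Phlda1 (2) and Myc (2). The background is 7.92% of all shared sites, and sites near 1 gene are not independent of each other.

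The site 45335 bp downstream of Spry2, an inhibitor of receptor tyrosine kinase signalling, had fold enrichments of 3.02 and 2.90 in the quiescent libraries, 13.1 and 9.27 in the activated and 19.5 and 17.0 in the reactivated ones. In an intron of Etv1 they were 4.60 and 2.52, then 9.95 and 9.13, then 13.1 and 15.8. In an intron of Egfr, the receptor for the EGF that quiescent medium lacks, they were 3.15 and 4.82, then 10.6 and 10.9, then 12.6 and 10.4. A site 158419 bp from Phlda1 had 4.34 and 3.59, then 11.5 and 8.86, then 14.2 and 16.9. Fold enrichment is not scaled between libraries, so the states were compared by percentile. At all 4 sites both reactivated percentiles lay above both quiescent ones. The Egfr site, for example, stood at 7.36 and 40.04 in quiescence and at 69.04 and 47.23 after reactivation. The same order was found at 85.2% of members and 30.2% of all shared sites. Quiescent values helped to choose the members, so this order is a description.

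Proneural and progenitor transcription factors came next, with 11 members among 81 shared sites (13.6%, 6.98 to 23.0%) near 10 of 20 genes. The widest gap of this list lay 347489 bp upstream of Pou3f2, a POU factor gene, with 3.02 and 2.83 in quiescence against 12.3 and 6.39 upon activation, where the activated replicates were far apart. Members near Sox11 and Sox4, both SOX factors of neuronal progenitors, had gaps of 43.7 and 33.5 points. The opposite set held 6 sites (7.41%) near genes of this list.

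The BMP pathway, whose ligand kept the cells quiescent, had 46 shared sites. Of these, 10 belonged to the opposite set (21.7%), beside 7.12% of all shared sites. Only 3 were members (6.52%, 1.37 to 17.9%), near the background of 7.92%. Of the 3 members, 2 lay at Bmpr1b, which encodes a type I BMP receptor. At its promoter the percentiles were 25.7 and 16.8 in the quiescent libraries, 64.0 and 52.2 in the activated and 27.6 and 31.4 in the reactivated ones.

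The member shares of the remaining lists ran from 5.13% to 10%, beside the background of 7.92%. The intervals given for the lists treat sites as independent, which sites near the same gene are not. The lists were also chosen with earlier results of these data known. No list, that of EGF and FGF signalling included, was therefore tested against the background. Cell cycle genes had 5 members among 58 shared sites (8.62%), near Mycn, Mki67 and Ccnd2, and as many sites of the opposite set. In an intron of Ccnd2, which encodes cyclin D2, the quiescent replicates were 3.02 and 6.38 and the activated 11.9 and 9.91. Astroglial and quiescence genes had 7 of 92 (7.61%), at Nfia, Nfib (2), Ntsr2, Gfap, Slc1a3 and Cdkn1a, beside 8 sites of the opposite set. Notch pathway genes had 4 of 59 (6.78%), near the coactivator gene Maml2, the effector gene Hes1, the ligand gene Dll1 and the feedback gene Nrarp, beside 6 sites (10.2%) of the opposite set. At Hes1 the site lay 170160 bp upstream, with 2.76 and 2.67 in the quiescent libraries, 8.19 and 7.98 in the activated and 10.1 and 10.7 in the reactivated ones. The oligodendrocyte lineage had 3 of 30 (10%), near Cspg4, Olig1 and Bcas1, and none of the opposite set. In an intron of Cspg4, which encodes the NG2 proteoglycan, percentiles of 21.3 and 39.6 in quiescence against 78.0 and 75.5 upon activation were followed by 39.3 and 35.6 after reactivation. Sterol and fatty acid synthesis had 2 of 39 (5.13%), near Mvk and Srebf1, and 2 sites of the opposite set.

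Members were spread over many genes. They were nearest to 1529 coding genes, of which 1299 had 1 member and 45 had 3 or more, and 297 of the genes were also nearest to a site of the opposite set. Zfhx3, Lmo4 and Kcnd3 had 5 members each, of 11, 8 and 10 shared sites, and Zmiz1 and 3100002H09Rik had 4 each. Around Lmo4, a LIM-domain cofactor gene, 4 of 5 members held CAGCTG and percentiles ranged from 3.0 to 51.7 in quiescent and from 32.3 to 96.3 in activated NSPCs. Around Zfhx3, a homeodomain factor gene, they ranged from 2.08 to 48.9 and from 49.8 to 74.2, and 1 of 5 members held CAGCTG. Another member lay within 25 kb of 172 members (9.46%, 8.15 to 10.9%), whereas 6.57% of all shared sites had a member other than themselves that near and 6.12% (5.01 to 7.39%) of the opposite set had another of their own. By chromosome the members took from 4.89% of shared sites on chromosome 19 to 10.1% on chromosome 1.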

How the data were processed

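The data were 2 ATAC-seq libraries each of quiescent, activated and reactivated NSPCs, and 1 H3K4me3 library each of quiescent and activated NSPCs with input. Per the submitters' processing notes and the study's methods, the authors used Trim Galore 0.4.0, Bowtie2 2.2.5 against mm10, Picard 1.88, SAMtools 1.3.1 and MACS at an FDR of 0.05, 1 list per library. For H3K4me3 the authors called broad peaks against input. The deposited fold enrichment is a ratio of pileup to background, not scaled between libraries, so percentiles within a library were used. The −log10 p-values and q-values were deposited by the authors within each library. The deposited score was not used, and summits were taken from the offsets (bp) that the authors deposited.

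Pileups were recovered from fold enrichment and −log10 p. At all members an integer pileup matched the p to within 0.02% of its −log10, and the lowest pileup called was 16 to 25 in the 6 libraries. Promoters had a TSS of GENCODE M21 within 1 kb; exon, intron and intergenic followed in that order. In the reactivated libraries percentiles were taken among shared sites with a peak, and sites without one took 0. The scripts used Python 3.11.15, pandas 2.3.3 and scipy 1.17.1, and were tested on simulated lists, in which all 159 sites that met the rule by construction were found. With 2 against 2 libraries an exact permutation test cannot go below p = 0.333, so none was run. Beyond the widest gaps, sites were named by gap within each gene list, at the threshold, by members per gene, by H3K4me3 change and by the lowest reactivated percentile. Members on chromosome 18 were counted but not described singly, and some sites that these rules pick are not reported here. The members, gene lists and words were chosen with earlier results of these data known. The alternatives tried were other gap sizes, stricter peaks, other merging, −log10 q in place of fold enrichment, the X chromosome, equal list lengths, same-numbered pairs, leaving out each library, and other promoter, overlap and window sizes.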

Additional observations from a re-analysis of the deposited data

How the results depend on the processing

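The number of members and their shares were recomputed with 1 choice changed at a time. The share of distal members with CAGCTG stayed above that of all distal shared sites and of the opposite set under every choice for which all 3 were computed. With a gap of 10 points, promoters held 33.1% of members, H3K4me3 in both states 34.6%, and percentile 50 or more in both reactivated libraries 49.8%; with 20 points these were 23.5%, 24.9% and 55.2%. A minimum of 10 on the −log10 q of each peak left 929 members among 14213 shared sites, with 868 sites in the opposite set. Of these members 39.5% were at promoters, 42.9% marked, 100% open in both reactivated libraries and 49.2% at percentile 50 or more. CAGCTG was held by 39.9% of the distal ones. Under that choice 43.3% of the opposite set and 67.0% of all shared sites were at promoters, so members fell below the opposite set there. Ranking by −log10 q gave 30.5%, 33.1% and 48.2% for promoters, mark and reactivated percentile, and lists of equal length gave 31.8% marked. Taking the replicate numbers as a block, with the gap met within each same-numbered pair, gave 2270 members, 31.7% at promoters, 33.5% marked, 99.9% open in both reactivated libraries, 50.2% at percentile 50 or more and 42.3% with CAGCTG; nothing in the labels ties the numbers across states. Promoters took 32.3% of members at 2 kb and 22.6% with coding starts alone. The mark took 25.2% when 0.5 of the site had to be covered. CAGCTG took 36.3% in windows at the middle of the site and 55.4% in windows of 200 bases to each side, where all distal shared sites had 36.4%. Reactivated lists of equal length gave 97.4% open. Leaving out each quiescent or activated library in turn, with 1 library standing for its state, made the rule easier to meet. It gave 3070 to 3295 members among 23922 to 26221 shared sites. Of these members 28.0 to 38.5% were at promoters and 29.1 to 39.9% were marked, and 39.2 to 43.3% of the distal ones held CAGCTG. With the reactivated libraries left out in turn as well, which keeps the 1818 members, 99.5 to 99.9% were open and 43.2 to 63.6% were at percentile 50 or more; 43.2% came without activated replicate 1, beside 43.5% of all shared sites. The cause of these shifts was not tested. Sites with pileups under those that the authors' calls needed could not be members at this depth.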
